A study of Mus musculus with 12 samples.

Results

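Insulin-like growth factor 1 (Igf1), its receptor (Igf1r) and 6 IGF binding proteins (Igfbp2, Igfbp3, Igfbp4, Igfbp5, Igfbp6 and Igfbp7) were followed in mouse embryonic fibroblasts undergoing conversion towards motor neurons. These 8 genes were taken by symbol from the 23077 genes of the expression table. All 8 passed the filter on low values, which left 14207 genes for testing. The fibroblasts were primary cells with the Hb9::GFP reporter. Every culture received a retrovirus carrying NIL (Ngn2-2A-Isl1-2A-Lhx3), the transcription factors that drive the conversion, and the group named NIL received that virus alone. SDD cultures were also given SNAP-p53DD, a dominant-negative p53 fragment fused to a SNAP tag. In SDDIR and RISDD the same fusion shared a transcript with HRAS(G12V), a constitutively active RAS, placed behind the IRES in SDDIR (SDD-IRES-HRAS(G12V)) and ahead of it in RISDD (HRAS(G12V)-IRES-SDD). An IRES lets ribosomes start within a transcript, and the protein encoded behind it is usually made in smaller amounts.

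On day 3 after infection all cultures were moved to N3 medium (DMEM/F-12 with N2, B27, Glutamax, BDNF, GDNF, CNTF and FGF), and cells were collected on day 4. RepSox, an inhibitor of the TGF-beta type I receptor, was present from day 3 in SDD, SDDIR and RISDD but not in NIL. Sorting took live single cells in NIL and SNAP-stained cells in the other 3 groups, so NIL differs from them by p53DD, RepSox and the sort together. These cannot be told apart. N2 and B27 both contain insulin, which at high concentration also activates the IGF1 receptor, and the serum of the earlier maintenance medium carries IGFs and binding proteins. NIL, SDD and RISDD had 3 libraries each and SDDIR had 2. The labels call the replicates biological without saying whether they were separate cultures, and each p-value therefore reflects no more than the spread among these libraries, which may be technical.

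IGF1 is a secreted growth factor that signals through IGF1R, a receptor tyrosine kinase that feeds the PI3K-AKT and RAS-MAPK pathways. Nearly all secreted IGF is held by the IGFBPs, which lengthen its life and in most settings keep it from the receptor, until proteases cut them. Fibroblasts make both the ligands and several of the binding proteins, and macrophages are another known source of IGF1. IGFBP7 binds IGFs weakly and is often classed as a related protein.

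Recovered reads per library ranged from 14872639 to 29815073. NIL C stood apart from NIL A and NIL B: mitochondrial genes took 0.537% of its reads against 2.60% to 4.04% in the other 10 libraries. Chi-square per degree of freedom between its reads and those of NIL A and NIL B was 215 and 220, and between other libraries of 1 group it was 8.91 to 30.3. Values without NIL C are therefore given beside the results that rest on NIL. The summed level of 12 fibroblast markers was 959213 to 1397637 in NIL, 704465 to 831351 in SDD, 261283 to 287166 in SDDIR and 196849 to 212709.7 in RISDD, and none of these genes was at 0 in any group. Chat, the enzyme that makes the motor neuron transmitter acetylcholine, was at 0 in all 11 libraries. The summed level of 12 neuronal markers was 3140.3 to 5866 in NIL, 8142 to 15667 in SDD, 6201 to 6209.8 in SDDIR and 14585 to 16125 in RISDD. That sum hides a split: of the 10 tested, 5 rose and 5 fell in RISDD against SDD, where 20.0% of all tested genes rose and 22.6% fell. Mean Nefl was 3294 in SDD and 8956 in RISDD, and Nefm 1603 and 3884. Mean Mnx1 was 94.2 in SDD and 7.42 in RISDD, and Dcx 859 and 12.5. In bulk RNA, fewer cells of a type and less RNA per cell cannot be told apart. Levels below are scaled counts, that is, gene counts divided by a constant for each library. Folds and log2 differences are on the log2(value + 1) scale, with limma's moderated test and Benjamini-Hochberg adjustment over all 14207 genes, and a gene passed at an adjusted p under 0.05.

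In SDD against NIL, 1 member rose (Igfbp5) and 4 fell (Igf1, Igfbp2, Igfbp4 and Igfbp7), where 17.6% of all tested genes passed (9.32% higher, 8.26% lower). In SDDIR against SDD, 5 of the 8 fell (Igfbp2, Igfbp3, Igfbp5, Igfbp6 and Igfbp7) and none rose, against 22.5% of all genes (8.66% higher, 13.9% lower). In RISDD against SDD, Igfbp3 rose and Igf1r, Igfbp2, Igfbp5 and Igfbp7 fell, against 42.6% of all genes (20.0% higher, 22.6% lower). Between the HRAS groups, RISDD against SDDIR, Igfbp3 was higher and Igfbp5 lower, and 9.69% of all genes passed (4.64% higher, 5.05% lower). All 8 members were lower in SDDIR than in NIL (33.5% of all genes passed, 18.2% lower and 15.3% higher), and 7 were lower in RISDD than in NIL with Igfbp3 higher (46.7% of all genes passed, 23.5% lower and 23.2% higher). Comparisons with the same control group share its libraries.

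The median log2 difference of the 8 members was -0.65 (all tested genes 0.05) in SDD against NIL, -0.99 (all tested genes 0.01) in SDDIR against SDD and -0.69 (all tested genes 0.02) in RISDD against SDD. It was -0.15 (all tested genes 0.01) in RISDD against SDDIR, -1.58 (all tested genes 0.03) in SDDIR against NIL and -1.47 (all tested genes 0.05) in RISDD against NIL. Without NIL C, 3, 6, 5, 3, 7 and 8 members passed in these 6 comparisons in that order. The count in SDD against NIL was 3 without SDD A or RISDD A and 2 without SDD B or SDD C. In SDDIR against SDD it was 3 without any 1 of SDD A, SDD C, SDDIR A or SDDIR B. In RISDD against SDDIR it was 1 without SDDIR B, and in SDDIR against NIL it was 3 without SDDIR A.

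**Figure D1:**
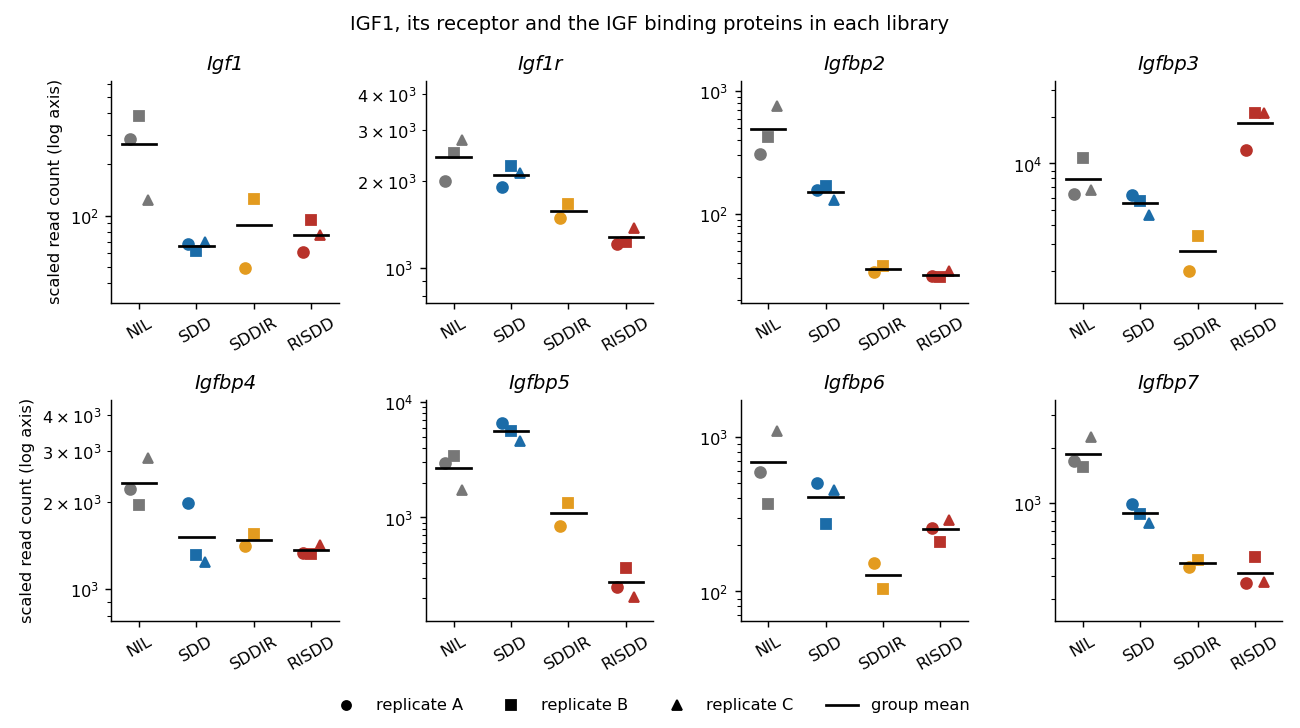
Scaled count of each member (log axis) in each of the 11 libraries, by group, with 1 point per library and a bar at the group mean. Igfbp3 is highest in the 3 RISDD libraries (12244 to 21395), Igfbp5 is lowest there (203 to 367), and Igfbp2 is near 30 to 38 in every library with HRAS.

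Igf1 (ENSMUSG00000020053.19), the ligand, was highest in NIL and low in the 3 groups with p53DD. Its scaled counts were 281, 388 and 124 in NIL A, B and C, 67.7, 61.9 and 70.0 in SDD, 49.1 and 126 in SDDIR and 60.6, 94.0 and 76.7 in RISDD. These rest on only 49 to 348 reads per library. Every SDD and RISDD library lay below every NIL library, while SDDIR B lay just above NIL C. Igf1 fell 3.55-fold in SDD against NIL (log2 -1.83, SE 0.43, adjusted p = 0.0174), and 4.91-fold without NIL C (adjusted p = 0.00124). The call was lost without SDD A, SDD B or SDD C (adjusted p = 0.0553, 0.0576 and 0.0560) and with only the 2 groups compared (0.0575).

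The fall of Igf1 from NIL was 3.11-fold in RISDD (adjusted p = 0.0107) and 3.00-fold in SDDIR (adjusted p = 0.0291). With only the 2 groups compared, the SDDIR fall did not pass (adjusted p = 0.159). The SDDIR call was lost without NIL A, NIL B or SDDIR A (adjusted p = 0.0667, 0.0687 and 0.280). HRAS added to p53DD gave no call for the ligand. The ratio to SDD was 1.14 in RISDD (95% interval 0.587 to 2.22, adjusted p = 0.759) and 1.18 in SDDIR (interval 0.562 to 2.48, adjusted p = 0.789), and the RISDD to SDDIR ratio had an interval of 0.459 to 2.03 (adjusted p = 0.971). The 3 groups with p53DD overlapped one another.

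The sum of markers of macrophages and other leukocytes was, like Igf1, lower in the groups with p53DD than in NIL. The summed level of 14 such markers was 4285 to 16411 in NIL, 831 to 2029 in SDD, 420.1 to 1085 in SDDIR and 804 to 1505 in RISDD. Of the 13 that were tested, 3 fell and none rose in SDD against NIL, where 8.26% of all tested genes fell. In SDDIR against NIL 12 fell (18.2% of all tested genes fell). In RISDD against NIL 10 fell and 1 rose (23.5% of all tested genes fell and 23.2% rose). The marker that rose was Cd68, with a mean of 280 in NIL and 621 in RISDD. Cx3cr1, a microglial and macrophage chemokine receptor, was at 0 in 5 libraries and Aif1 in 4, all of them with p53DD. Within NIL the orders differed: NIL B was highest in both, but NIL C had the lowest Igf1 (124) with a marker sum of 7229, above that of NIL A (4285). The part of these cells in the Igf1 difference was not tested.

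**Figure D2:**
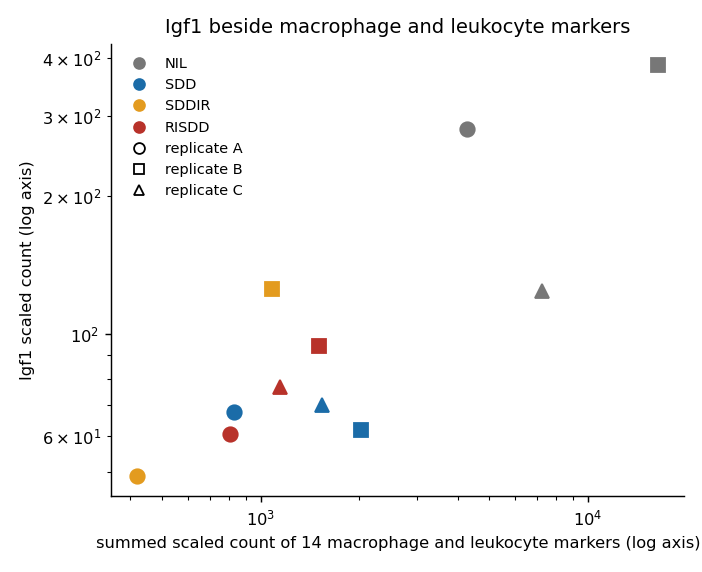
Igf1 (vertical, scaled count, log axis) against the summed scaled count of 14 macrophage and leukocyte markers (horizontal, log axis), with 1 point per library coloured by group. The 3 NIL libraries lie at the right (4285 to 16411), and all libraries with p53DD have sums from 420.1 to 2029 and Igf1 from 49.1 to 126.

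Igf1r (ENSMUSG00000005533.11), the receptor kinase, was lower with HRAS. Scaled counts were 1987, 2490.4 and 2763 in NIL, 1907, 2241 and 2119 in SDD, 1482 and 1656 in SDDIR and 1211, 1231 and 1370.5 in RISDD. NIL and SDD overlapped, every SDDIR library was below every SDD library, and every RISDD library was below every SDDIR library. Igf1r fell 1.64-fold in RISDD against SDD (log2 -0.72, SE 0.14, adjusted p = 0.00202), and the 23 alternative analyses all kept that call. SDDIR was 1.33-fold below SDD without passing (adjusted p = 0.0896), although it passed without NIL C (adjusted p = 0.0129). RISDD against SDDIR gave a ratio interval of 0.636 to 1.03 (adjusted p = 0.281). Against NIL, Igf1r fell 1.88-fold in RISDD (adjusted p = 4.52e-04) and 1.53-fold in SDDIR (adjusted p = 0.0138, and 0.118 without SDDIR A). With only the 2 groups compared, the SDDIR fall from NIL did not pass (adjusted p = 0.133). SDD against NIL did not pass (ratio interval 0.702 to 1.08, adjusted p = 0.342).

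Igfbp2 and Igfbp7 went down in steps from NIL to SDD to the HRAS groups. Their promoters are shown because these 2 genes had the most similar profiles of any pair of members (Pearson r = 0.980 over 11 libraries, as a description). Each sequence is the 250 bases before a RefSeq transcript start in GRCm38.p6, written from upstream to the start on the strand of the gene, with capitals marking GC boxes (GGGCGG or its complement).
Igfbp2 (chr1:72824230-72824479, plus strand): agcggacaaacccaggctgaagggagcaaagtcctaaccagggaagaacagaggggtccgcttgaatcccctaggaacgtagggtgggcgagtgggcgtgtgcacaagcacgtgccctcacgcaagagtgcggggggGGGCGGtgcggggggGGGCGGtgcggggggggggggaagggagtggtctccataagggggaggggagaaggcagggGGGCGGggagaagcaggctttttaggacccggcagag
Igfbp7 (chr5:77408046-77408295, minus strand): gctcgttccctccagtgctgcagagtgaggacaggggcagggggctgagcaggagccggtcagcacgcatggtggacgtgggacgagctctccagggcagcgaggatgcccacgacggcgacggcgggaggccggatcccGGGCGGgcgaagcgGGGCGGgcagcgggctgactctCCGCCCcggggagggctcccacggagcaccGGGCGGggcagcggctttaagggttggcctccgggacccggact
The Igfbp2 window shown held 3 GC boxes and the Igfbp7 window 4, at GC contents of 67.2% and 74.0% against a median of 52.4% over 32851 RefSeq promoter windows of the same length. A GC box was present in 32.7% of those windows and in 3 of the 9 windows of the 8 members, of which Igfbp2 has a pair. The other Igfbp2 window, not shown, held no GC box, an AP-1 match (TGAGTCA) and a SMAD half-site match, at a GC content of 56.4%. Both strands were searched, and none of the matches overlapped another motif. A match is a description and not a shown binding site.

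Igfbp2 (ENSMUSG00000039323.19), which binds IGF1 and IGF2 and also has an integrin-binding motif, had the deepest fall from NIL of the 8 genes in SDDIR, and in RISDD when NIL C is counted (without it Igfbp5 fell 11.8-fold and Igfbp2 11.1-fold). Scaled counts were 309, 424 and 758 in NIL, 157, 168 and 129.6 in SDD, 33.9 and 37.9 in SDDIR and 30.9, 30.3 and 34.0 in RISDD. NIL, SDD and the HRAS groups did not overlap, whereas SDDIR and RISDD did, at 25 reads in the lowest library. It fell 3.06-fold in SDD against NIL (log2 -1.61, SE 0.29, adjusted p = 0.00545; 2.39-fold without NIL C, adjusted p = 0.00179). From SDD it fell a further 4.12-fold in SDDIR (SE 0.33 on log2, adjusted p = 0.00157) and 4.64-fold in RISDD (SE 0.29, adjusted p = 1.58e-04). The 2 HRAS groups did not differ by test, with a RISDD to SDDIR ratio interval of 0.536 to 1.47 (adjusted p = 0.829). Against NIL the falls were 12.6-fold and 14.2-fold (adjusted p = 4.26e-05 and 4.45e-06), and 9.85-fold and 11.1-fold without NIL C. Each of these 5 calls held in all 23 alternatives.

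Igfbp7 (ENSMUSG00000036256.14), a secreted protein of the matrix and vessel wall, had scaled counts of 1683, 1559.5 and 2281 in NIL, 991, 869 and 783 in SDD, 451 and 492 in SDDIR and 365, 507 and 373 in RISDD. The 3 levels were separate, with SDDIR and RISDD overlapping. It fell 2.07-fold in SDD against NIL (SE 0.18 on log2, adjusted p = 0.00449; 1.85-fold without NIL C). RISDD was 2.14-fold below SDD (SE 0.18, adjusted p = 7.19e-04), and SDDIR was 1.86-fold below SDD (SE 0.20, adjusted p = 0.00988). The SDDIR call was lost without SDDIR A (0.0872) and without SDDIR B (0.0522), each of which leaves 1 library in that group, assumed to vary like the others. RISDD and SDDIR gave a ratio interval of 0.637 to 1.19 (adjusted p = 0.641). With HRAS, fibroblast markers fell beside both genes, and beside Igfbp5 below. In SDD against NIL, where both genes fell, 1 of the 12 markers fell, 1 rose and 10 did not pass (17.6% of all tested genes passed). In SDDIR against SDD 10 of 12 fell and 1 rose (22.5% of all tested genes passed), and in RISDD against SDD 11 fell and 1 rose (42.6%). The part of this marker fall in the results was not tested.

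Igfbp3 and Igfbp5 moved in opposite directions in RISDD. Their promoter windows are shown for that contrast, and neither holds any of the 5 motifs searched, so they carry no capitals.
Igfbp3 (chr11:7213924-7214173, minus strand): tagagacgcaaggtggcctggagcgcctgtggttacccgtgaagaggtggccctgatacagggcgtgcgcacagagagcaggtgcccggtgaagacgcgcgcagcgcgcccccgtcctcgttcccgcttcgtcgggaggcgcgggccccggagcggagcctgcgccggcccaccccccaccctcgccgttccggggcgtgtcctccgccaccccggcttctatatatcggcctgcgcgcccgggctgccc
Igfbp5 (chr1:72874866-72875115, minus strand): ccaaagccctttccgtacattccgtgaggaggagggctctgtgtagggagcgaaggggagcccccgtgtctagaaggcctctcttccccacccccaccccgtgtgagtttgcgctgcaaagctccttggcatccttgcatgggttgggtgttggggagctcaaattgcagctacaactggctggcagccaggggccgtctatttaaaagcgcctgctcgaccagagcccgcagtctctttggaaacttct
The motifs were the TATA box TATAAA, the GC box GGGCGG, the AP-1 site TGANTCA, the SMAD half-site CAGAC and the E-box CAGATG, on both strands. They occurred in 12.4%, 32.7%, 6.75%, 42.2% and 14.4% of all 32851 windows, and in 2, 3, 2, 3 and 1 of the 9 member windows. Only these letters counted as a match, so variants such as TATATA in the Igfbp3 window were not counted. The 8 genes lie on chromosomes 10 (Igf1), 7 (Igf1r), 1 (Igfbp2 and Igfbp5), 11 (Igfbp3 and Igfbp4), 15 (Igfbp6) and 5 (Igfbp7). GC content was 73.2% for Igfbp3 and 58.8% for Igfbp5. In the RefSeq gene order Igfbp2 and Igfbp5 are neighbours, as are Igfbp3 and Igfbp1. Igfbp1 was not among the genes of the expression table.

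Igfbp3 (ENSMUSG00000020427.12), the main carrier of IGF in serum, was the only member that was highest in RISDD. Scaled counts were 6369, 10841 and 6749.7 in NIL, 6273, 5735 and 4623 in SDD, 2009.8 and 3381 in SDDIR and 12244, 21395 and 21243 in RISDD. All 3 RISDD libraries lay above all others and both SDDIR libraries lay below all others. Igfbp3 rose 3.22-fold in RISDD against SDD (log2 1.69, SE 0.29, adjusted p = 8.13e-04) and was 6.80-fold higher in RISDD than in SDDIR (log2 2.76, SE 0.32, adjusted p = 9.02e-04). The 23 alternatives kept both calls. With HRAS behind the IRES the direction was down: Igfbp3 fell 2.11-fold in SDDIR against SDD (SE 0.32 on log2, adjusted p = 0.0348). Under moderation without trend and robustness this fall did not pass (adjusted p = 0.0547). That fall was lost without SDD A, SDD B, SDD C or SDDIR A (adjusted p = 0.109, 0.0882, 0.0510 and 0.317).

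Against NIL, Igfbp3 was 2.29-fold higher in RISDD (adjusted p = 0.00661; 2.13-fold without NIL C, adjusted p = 0.0242). In SDDIR it was 2.97-fold lower than in NIL (adjusted p = 0.00425, and 0.0626 without SDDIR A). With array weights the RISDD rise over NIL did not pass (adjusted p = 0.0990). SDD and NIL gave a ratio interval of 0.457 to 1.102 (adjusted p = 0.249). Epithelial markers rose beside Igfbp3 in RISDD: the summed level of 10 markers was 85.4 to 153 in NIL, 19.2 to 29.98 in SDD, 2399 to 3738 in SDDIR and 8584 to 12706 in RISDD. All 7 tested markers rose in RISDD against SDD, where 20.0% of all tested genes rose. Their relation to Igfbp3 was not tested.

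Igfbp5 (ENSMUSG00000026185.9), a matrix-bound binding protein of mesenchymal cells, had the widest range of the 8 genes as a ratio of the highest to the lowest library. Scaled counts were 2948, 3385 and 1719 in NIL, 6559, 5550.4 and 4569 in SDD, 851 and 1341 in SDDIR and 252, 367 and 203 in RISDD. The 4 groups did not overlap, in the order SDD, NIL, SDDIR, RISDD from high to low. From SDD it fell 5.14-fold in SDDIR (log2 -2.36, SE 0.33, adjusted p = 7.43e-04) and 20.6-fold in RISDD (log2 -4.36, SE 0.30, adjusted p = 1.91e-06). RISDD was 4.01-fold below SDDIR (SE 0.33, adjusted p = 0.00532), a call lost without SDDIR B (adjusted p = 0.0673). Igfbp5 was thus the only member that was lower by test in RISDD than in SDDIR, and Igfbp3 the only one that was higher.

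The rise of Igfbp5 in SDD against NIL was 2.13-fold (SE 0.30 on log2, adjusted p = 0.0310) and rested on few libraries. Without NIL C it was 1.74-fold (adjusted p = 0.0544). Without SDD A, SDD B, SDD C or RISDD A it did not pass either (adjusted p = 0.113, 0.0850, 0.0583 and 0.0512). With array weights the log2 difference was 0.70 (adjusted p = 0.279). With only the 2 groups compared the rise did not pass (adjusted p = 0.0786). Against NIL, Igfbp5 fell 9.66-fold in RISDD (adjusted p = 1.43e-05) and 2.41-fold in SDDIR (adjusted p = 0.0151). The SDDIR fall was log2 -0.94 without SDDIR A, and it did not pass with only the 2 groups compared (adjusted p = 0.0823).

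Igfbp6 (ENSMUSG00000023046.7), which prefers IGF2 over IGF1, was lowest in SDDIR. Scaled counts were 590.0, 369 and 1085 in NIL, 499.5, 272 and 453 in SDD, 152 and 103 in SDDIR and 257, 209 and 289 in RISDD. SDDIR lay below all other libraries, and RISDD overlapped SDD. It fell 3.13-fold in SDDIR against SDD (SE 0.41 on log2, adjusted p = 0.0158), a call lost without SDD A, SDD C or SDDIR B (adjusted p = 0.0615, 0.0555 and 0.146). RISDD against SDD did not pass (ratio interval 0.360 to 1.12, adjusted p = 0.180). Only SDDIR thus passed against SDD, but the HRAS groups themselves did not differ by test. RISDD against SDDIR gave a log2 difference of 0.99 (adjusted p = 0.172, and 0.0358 without NIL C). Against NIL, Igfbp6 fell 4.90-fold in SDDIR (adjusted p = 0.00218) and 2.47-fold in RISDD (adjusted p = 0.0150). The RISDD call was lost without RISDD B (0.0574) and with array weights (0.0832). SDD against NIL did not pass (adjusted p = 0.242).

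Igfbp4 (ENSMUSG00000017493.13), a binding protein that is cut by the protease PAPP-A, varied least of the binding proteins. Scaled counts were 2209, 1955 and 2831 in NIL, 1981, 1309 and 1234 in SDD, 1407 and 1544 in SDDIR and 1325, 1323 and 1420.3 in RISDD. SDD A reached the NIL range and the other p53DD libraries lay below it. HRAS made no detected difference: the ratio to SDD had a 95% interval of 0.720 to 1.39 in SDDIR (adjusted p = 0.9997) and 0.685 to 1.23 in RISDD (adjusted p = 0.648). Against NIL it fell 1.70-fold in RISDD (adjusted p = 0.00815). The falls of 1.56-fold in SDD (adjusted p = 0.0424) and 1.56-fold in SDDIR (adjusted p = 0.0407) were near the threshold, and each passed in 10 of 23 alternatives. For SDD the call was lost without NIL A or NIL C (adjusted p = 0.0638 and 0.0572), without SDD B or SDD C (0.138 and 0.158) and without any 1 RISDD or SDDIR library (0.0651 to 0.0682). For SDDIR it was lost without NIL A, NIL C, SDD B, SDDIR A or SDDIR B (adjusted p = 0.0604, 0.0538, 0.0531, 0.207 and 0.119) and without any 1 RISDD library (0.0613 to 0.0625).

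Leaving out NIL C kept the direction of every member against NIL. It ended the calls of Igfbp4 and Igfbp5 in SDD and that of Igfbp4 in SDDIR. Without it, the folds below NIL in RISDD were 4.30 for Igf1, 1.75 for Igf1r, 1.53 for Igfbp4, 11.8 for Igfbp5, 1.86 for Igfbp6 and 3.94 for Igfbp7. In SDDIR they were 4.15 for Igf1, 1.42 for Igf1r, 3.19 for Igfbp3, 1.41 for Igfbp4, 2.96 for Igfbp5, 3.70 for Igfbp6 and 3.44 for Igfbp7.

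**Figure D3:**
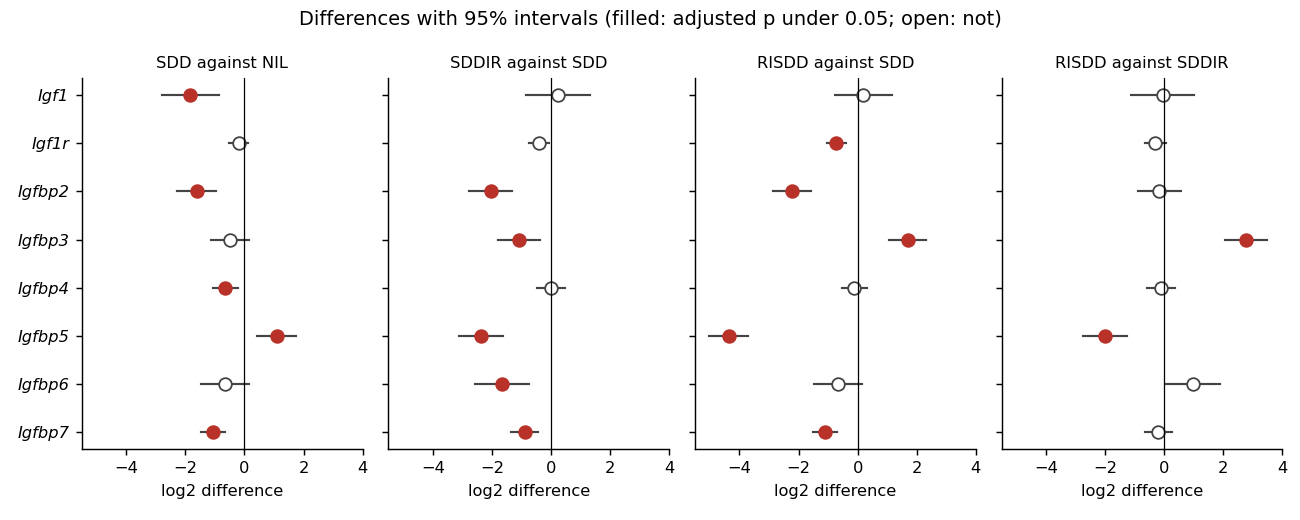
Log2 difference (horizontal) of each member in the comparisons drawn, with 95% intervals from limma, filled where the adjusted p was under 0.05. Igfbp3 is right of 0 and Igfbp5 left of 0 in the panels of RISDD against SDD (1.69 and -4.36) and RISDD against SDDIR.

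Divided by transcript length, the 6 binding proteins can be compared with one another. The longest protein-coding GENCODE transcript of each gene was used. Igfbp3 made up 47.6% of the summed IGFBP level per kilobase in NIL (range 38.3 to 59.6%), 47.5% in SDD (46.0 to 50.1%), 49.4% in SDDIR (44.2 to 54.7%) and 87.8% in RISDD (84.2 to 89.8%). With the median transcript length the RISDD share was 87.1%. Igfbp3 was thus the leading binding protein in every group, by mean share.

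The second place changed between groups. By mean share it was held by Igfbp7 in NIL (22.5%), by Igfbp5 in SDD (19.1%) and by Igfbp4 in RISDD (4.35%, beside Igfbp7 at 4.17%). In SDDIR the order of Igfbp7 (18.02%) and Igfbp4 (17.7%) depended on the length used: with the median transcript length they took 15.4% and 24.4%. Igfbp5 went from 19.1% in SDD to 0.555% in RISDD. The summed level per kilobase was 5868 to 7507 in NIL, 4151 to 5595 in SDD, 1878 to 2555 in SDDIR and 6004 to 9877 in RISDD. Both SDDIR libraries were therefore below all others in total IGFBP transcript, and RISDD overlapped NIL. These shares are descriptions without a test.

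**Figure D4:**
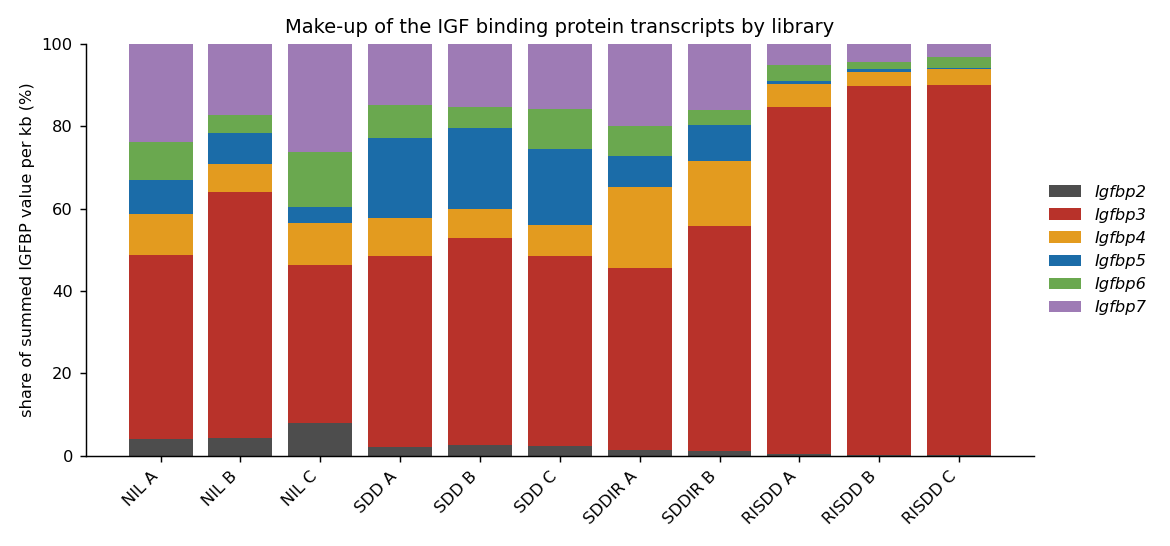
Share (percent) of each of the 6 binding proteins in the summed IGFBP level per kilobase of transcript, with 1 stacked bar per library. Igfbp3 takes 38.3% to 59.6% in the NIL, SDD and SDDIR libraries and 84.2% to 89.8% in RISDD.

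Other genes of the IGF system were taken from a list of 62, of which 56 were tested. Of these, 7 rose and 5 fell in SDD against NIL (17.6% of all tested genes passed), 7 rose and 17 fell in SDDIR against SDD (22.5%), and 11 rose and 26 fell in RISDD against SDD (42.6%). In RISDD against SDDIR 4 rose and 6 fell (9.69%), in SDDIR against NIL 10 rose and 18 fell (33.5%), and in RISDD against NIL 10 rose and 21 fell (46.7%). Without NIL C the numbers that passed were 21, 38, 47, 23, 34 and 37. The count in RISDD against SDDIR was 6, 5 and 4 without RISDD A, B and C and 4 without either SDDIR library. In the same order the list's median log2 difference was -0.06, -0.26, -0.47, -0.10, -0.12 and -0.31, where that of all tested genes was 0.05, 0.01, 0.02, 0.01, 0.03 and 0.05.

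Among ligands and receptors, Igf2, the fetal ligand of the same receptor, was lower with HRAS. Scaled counts were 12309.5, 7931 and 9465 in NIL, 8209.8, 4076 and 4607 in SDD, 2332 and 1413 in SDDIR and 1499, 1383 and 1543 in RISDD, with no overlap between the HRAS groups and the rest. Igf2 fell 3.64-fold in RISDD against SDD (adjusted p = 3.25e-04) and 2.95-fold in SDDIR against SDD (adjusted p = 0.00466, and 0.0680 without SDDIR B). Igf2r, which carries IGF2 to lysosomes, fell 1.55-fold in RISDD against SDD (adjusted p = 8.00e-04). Insr, the insulin receptor, lay between 859 and 1153 in all 11 libraries and passed in no comparison (adjusted p from 0.531 to 0.988).

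Genes that act on the binding proteins moved in both directions. Pappa encodes the protease that cuts IGFBP4, and its scaled counts were 959, 1131 and 842 in NIL, 708, 750.4 and 768 in SDD, 191 and 277 in SDDIR and 302, 287 and 248 in RISDD. It fell 3.22-fold in SDDIR (adjusted p = 1.91e-04) and 2.66-fold in RISDD (adjusted p = 8.03e-05) against SDD. Stc1, a secreted glycoprotein whose family includes inhibitors of PAPP-A, moved the other way, with 906, 1440.3 and 909 in NIL, 1917, 2716 and 2734 in SDD, 16403 and 14969 in SDDIR and 28365, 29637 and 33368 in RISDD. It rose 6.46-fold in SDDIR (adjusted p = 3.84e-05) and 12.5-fold in RISDD (adjusted p = 4.51e-07) against SDD, with no overlap between the groups compared. Against NIL, Stc1 was 14.8-fold higher in SDDIR and 28.7-fold higher in RISDD (adjusted p = 3.57e-06 and 9.06e-08).

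Adam12, a protease that cuts IGFBP3 and IGFBP5, had scaled counts of 6318, 5332 and 6298 in NIL, 4479, 2982 and 3825 in SDD, 638 and 692 in SDDIR and 172, 191 and 159 in RISDD. It was 21.3-fold lower in RISDD than in SDD (adjusted p = 6.86e-08) and 3.81-fold lower than in SDDIR (adjusted p = 4.29e-04), and the groups did not overlap. Against NIL, Adam12 fell 8.96-fold in SDDIR and 34.2-fold in RISDD (adjusted p = 3.03e-06 and 2.95e-08). Of the 9 tested genes of proteolysis and the ternary complex, 1 rose and 4 fell in SDDIR against SDD (22.5% of all tested genes passed). In RISDD against SDD 2 rose and 4 fell (42.6%). In SDD against NIL (17.6%) 1 rose and 2 fell, among them Ctsd, a lysosomal protease, 2.60-fold (adjusted p = 7.63e-04). Scaled counts of Ctsd were 15345, 22672 and 16411 in NIL, 7489, 7213 and 6044 in SDD, 7519 and 8328 in SDDIR and 16997, 21405 and 17431 in RISDD. Unlike Pappa and Adam12, Ctsd rose 2.69-fold in RISDD against SDD (adjusted p = 6.33e-05), and SDDIR against SDD did not pass (adjusted p = 0.504). Stc2, the paralogue of Stc1, passed in no comparison (adjusted p from 0.444 to 0.977). Stc2, and Ctsd beyond SDD against NIL, were chosen after their values were seen.

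The CCN genes carry an IGFBP-type domain but are matrix proteins rather than carriers of IGF. Of 10 tested genes with such a domain, 1 rose and 6 fell in SDDIR against SDD (22.5% of all tested genes passed). In RISDD against SDD 1 rose and 7 fell (42.6%). Ccn2, also called connective tissue growth factor and a textbook target of TGF-beta, had 2721, 3294 and 4618 in NIL, 2793, 2749 and 1992 in SDD, 130.4 and 100.8 in SDDIR and 211, 257 and 138 in RISDD. NIL and SDD overlapped, and all HRAS libraries lay below both. Ccn2 fell 21.5-fold in SDDIR (adjusted p = 1.40e-05) and 12.6-fold in RISDD (adjusted p = 2.65e-06) against SDD. Ccn4, a WNT-induced member of the family, fell 16.6-fold in RISDD against SDD (adjusted p = 8.70e-08) and was 2.89-fold lower in RISDD than in SDDIR (adjusted p = 9.02e-04). Ccn1, an early-response matrix protein, rose 2.79-fold in SDD against NIL (adjusted p = 5.93e-04) and fell 7.05-fold in SDDIR against SDD (adjusted p = 1.34e-05). The family did not fall as a whole, because Ccn3 was higher with HRAS. Its mean was 4047 for SDDIR and 7413 for RISDD, against 1438 for SDD and 1041 for NIL. The lowest Ccn3 value with HRAS (3698, an SDDIR library) lay above the highest SDD value (1786). Ccn3 was chosen after its values were seen. Igfbpl1, an IGFBP-like secreted protein, rose 2.67-fold in SDD against NIL (adjusted p = 0.0179, and 0.0714 and 0.0596 without SDD A or SDD B). It was 3.51-fold lower in RISDD than in SDDIR (adjusted p = 0.0149, and 0.0582 and 0.148 without RISDD C or SDDIR B).

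The receptor's adaptors did not move as 1 group. Of 9 tested, 2 rose and 2 fell in SDD against NIL (17.6% of all tested genes passed). In SDDIR against SDD 2 rose and 1 fell (22.5%), and in RISDD against SDD 3 rose and 3 fell (42.6%). Irs1, which links the receptor to PI3K, had 1288, 1699 and 1276 in NIL, 868, 716 and 624 in SDD, 1488 and 1391 in SDDIR and 1374, 1131 and 1367 in RISDD. It fell 1.93-fold in SDD against NIL (adjusted p = 0.00432) and rose from SDD by 1.97-fold in SDDIR (adjusted p = 0.00344) and 1.76-fold in RISDD (adjusted p = 0.00223). SDD was thus the only group with a low Irs1, separate from the other 3. Irs2, its paralogue, had 2373, 2065 and 2791 in NIL, 4632, 4107 and 3201 in SDD, 4927 and 4854 in SDDIR and 2229, 1575 and 1678 in RISDD. Here the HRAS groups parted: Irs2 was 2.71-fold lower in RISDD than in SDDIR (adjusted p = 0.00240) and 2.18-fold lower than in SDD (adjusted p = 5.80e-04). Grb10, an inhibitory adaptor, fell 1.40-fold in RISDD against SDD (adjusted p = 0.00856). Further along, 19 genes of PI3K, AKT, FOXO and mTOR were tested. Of these, 3 rose and 7 fell in RISDD against SDD (42.6% of all tested genes passed), and 2 rose and 3 fell in SDDIR against SDD (22.5%). Foxo6, a FOXO transcription factor, rose 3.59-fold in SDD against NIL (adjusted p = 0.0432; 5.57-fold without NIL C, adjusted p = 0.00215), and this did not pass without any 1 of NIL A, NIL B, SDD A, SDD B, SDD C, RISDD B and the SDDIR pair (adjusted p = 0.0614 to 0.132). Socs2, an inhibitor of growth hormone signalling, was 2.95-fold higher in RISDD than in SDDIR (adjusted p = 0.0356), which was lost without any 1 SDD, RISDD or SDDIR library (adjusted p = 0.0537 to 0.274).

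**Figure D5:**
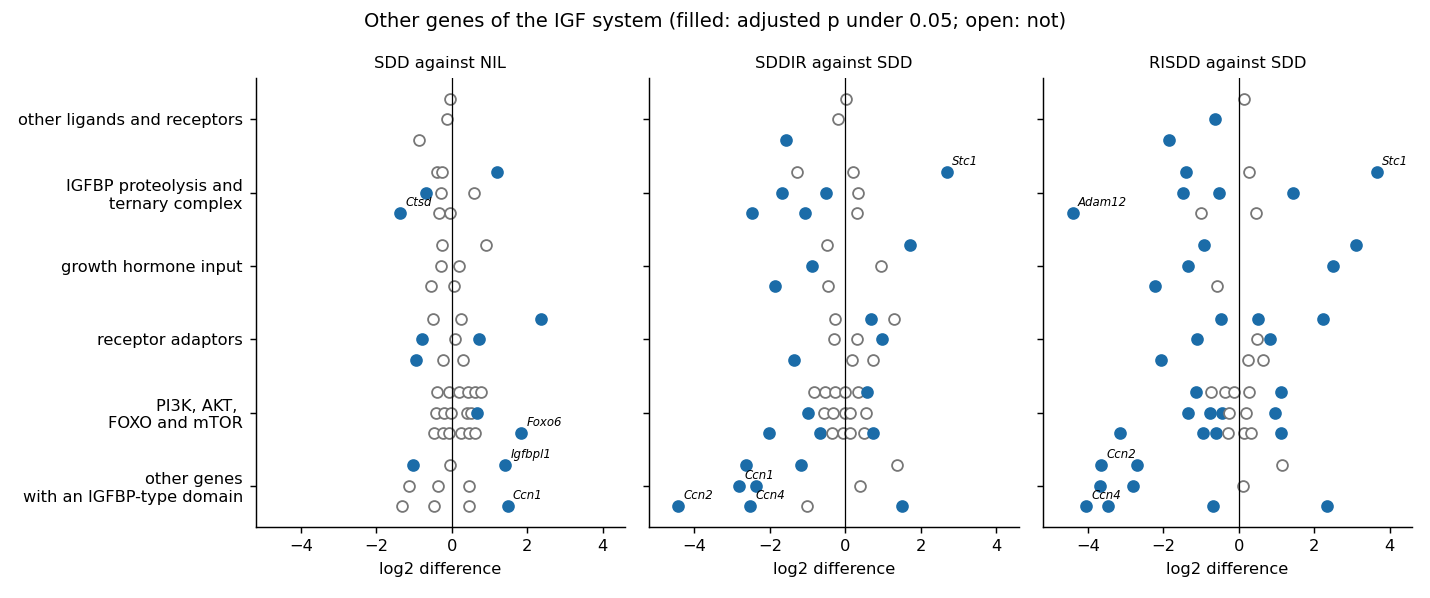
Log2 difference (horizontal) of the 56 tested genes of the wider IGF list, by sublist (vertical), filled where the adjusted p was under 0.05. The panels are SDD against NIL, SDDIR against SDD and RISDD against SDD, with the genes named by rule labelled. In the panels of HRAS groups against SDD, Stc1 is the gene farthest right, and the gene farthest left is Ccn2 for SDDIR and Adam12 for RISDD.

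The genes whose profiles over the 11 libraries were most like those of the members were found among 10650 genes, as Pearson's r of log2(value + 1), given as a description because all points share library and depth. For Igfbp5 they were Setbp1 (0.994), Chl1 (0.993) and Runx1t1 (0.991), and for Igfbp2 Calhm2 (0.993), Lrp1 (0.992) and Col4a2 (0.991). Igfbp7 was closest to Mmp2 (0.992), Extl3 (0.991) and P3h4 (0.990), and Igfbp3 to Foxp1 (0.964), Aig1 (0.963) and Ano6 (0.959). Igf1r was closest to Erbb2, Jade2 and Hspg2 (0.969 each), Igfbp6 to Dlk1 (0.983), Igfbp4 to 1110065P20Rik (0.953) and Igf1, with the lowest likeness, to Thyn1 (0.908). Among the members themselves, Igf1r and Igfbp2 gave 0.936, and Igfbp3 and Igfbp5 gave -0.502.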

How the data were processed

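RNA of sorted cells was sequenced as polyA-selected, NEBNext Ultra II Directional libraries, per the labels' protocols. The submitters' processing notes name Trim Galore 0.6.10, Salmon 1.10.3 and the build GRCm39. The deposited values are signal: gene counts that the authors had divided by a constant per library. Which tool scaled them was not given in the sources used here. All values were whole multiples of their library's step (100% at a tolerance of 0.001), which gave back the reads. Of 12 labelled samples 11 libraries were used. The heading SDDIR_B stood over a pair of identical columns, counted once, so that 1 column was unused. Whether it holds replicate B or C cannot be settled, and 1 further SDDIR sample was not analysed here.

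Genes reaching a value of 10 in 3 or more libraries were fitted over all 4 groups in limma 3.58.1 (R 4.3.3), on log2(value + 1) with trended, robust moderation. A call was a Benjamini-Hochberg adjusted p under 0.05. The code was tested on simulated data. The members and gene lists were chosen with earlier results of these data known. All 8 members were named in every comparison. From the wider IGF list, Igf2, Igf2r, Insr, Irs1, Irs2, Grb10 and Pappa were always named. Up to 4 called genes per comparison of largest change and a mean of at least 100 were added, Stc1 among them. Like genes were the closest by Pearson's r. As alternatives, scaling was by quantiles or upper quartiles, the pseudocount was 0.5 or 10, the minimum value was 50 or none, moderation was without trend and robustness, array weights or a replicate block were added, the fit was limited to the 2 groups compared, edgeR 4.0.16 or DESeq2 1.42.0 was run on recovered reads, and libraries were left out singly. Promoter sequences are RefSeq's (GRCm38.p6), matched by symbol for all 8 genes. Transcript lengths are of GENCODE vM21.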

Additional observations from a re-analysis of the deposited data

How the results depend on the processing

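Over 23 alternatives, 1021 of 1104 values of the members kept their direction and side of the threshold, 60 lost a call and 11 gained one. For the named genes of the wider list 946 of 989 did so and 43 lost a call. With 2 or 3 libraries a group, a difference that did not pass is bounded only by its interval, and Igf1 and Igfbp2 rest on few reads. The fit with array weights did not fully converge.

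A total of 12 member values changed sign, none of them a call. Leaving out 1 library at a time, the log2 difference of Igf1 was -0.43 (without SDDIR B) to 0.91 in SDDIR against SDD and -0.72 to 0.62 in RISDD against SDDIR (above 0 without RISDD A or SDDIR B). That of Igfbp4 was -0.13 to 0.21 in SDDIR against SDD (above 0 without SDD A or SDDIR A) and -0.25 to 0.0922 in RISDD against SDD (above 0 without SDD A). Igf1 in RISDD against SDDIR was 0.0897 with the replicate block. Igfbp4 in SDDIR against SDD was 0.0379 with upper-quartile scaling, 0.0271 with quantile scaling, 0.15 with array weights and 0.0179 with the replicate block, and in RISDD against SDD it was 0.0263 with array weights.

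With only the 2 groups compared, 2 members passed in SDD against NIL, 4 in RISDD against SDDIR and 4 in SDDIR against NIL. The same fit called 697, 4923 and 1590 of all tested genes in these comparisons, and 5361 in SDDIR against SDD, where the fit of all groups called 2498, 1377, 4759 and 3199. From the wider IGF list it called 6, 27 and 16. With array weights, 4 members passed in RISDD against SDDIR, and all tested genes called were 6902 in SDDIR against SDD, 9781 in RISDD against SDD (6046 in the fit reported) and 5346 in RISDD against SDDIR. From the wider list, array weights called 39 in SDDIR against SDD and 29 in RISDD against SDDIR. DESeq2 called 2258 genes in RISDD against SDDIR.

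Leaving out 1 library at a time, members called were 2 to 5 in SDD against NIL, 3 to 6 in SDDIR against SDD, 5 in RISDD against SDD, 1 to 3 in RISDD against SDDIR, 3 to 8 in SDDIR against NIL and 7 to 8 in RISDD against NIL. All tested genes called were, in that order, 1226 to 4114, 1673 to 6336, 4753 to 8972, 308 to 4186, 2347 to 6868 and 4967 to 8416. Genes of the wider list were 8 to 21, 16 to 38, 34 to 47, 4 to 23, 22 to 34 and 27 to 37.

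The replicate letters were not used to pair the libraries in the main fit, and the values here do not exclude such a pairing. Deviations from the group means of same-letter libraries correlated at 2.25e-04 to 0.271 over 15 pairs, all above 0, with 9 over 0.1. Averaged per letter, each of the 11 libraries correlated best with its own letter, a hint from the data and not from the design. Pair by pair, RISDD C and SDDIR A correlated best with each other (0.137). With the replicate block, 4, 5, 6, 2, 7 and 8 members passed in the same 6 comparisons. Igfbp4 no longer passed in SDD against NIL (adjusted p = 0.0532) or SDDIR against NIL (0.0682), and Igfbp6 passed in RISDD against SDD (0.0403).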
